A study of Mus musculus with 6 samples.

Results

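Cytochrome c oxidase, complex IV of the respiratory chain, passes electrons from cytochrome c to oxygen. Several of its small nuclear-encoded subunits exist as isoforms encoded by separate genes. Transcripts of 9 such genes were examined in brown adipocytes that were differentiated in culture from WT or Ucp1-KO mice: Cox4i1, Cox4i2, Cox6a1, Cox6a2, Cox7a1, Cox7a2, Cox7a2l, Cox8a and Cox8b. They were chosen by gene symbol among the RefSeq rows of the deposited table, with the most abundant row standing for a gene that had several. All 9 were found, among 22466 genes with a RefSeq row. Only Cox7a2l had more than 1 such row (2), and all 9 had a mean above the minimum of 0.5 RPKM set for testing.

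Both groups came from mice of strain 129SvEvS1, aged 5 to 6 weeks, and the cells were precursors from the stromal-vascular fraction of interscapular brown fat. WT cells had the genotype wildtype (replicates 10, 11 and 12), and Ucp1-KO cells the genotype UCP1(-/-) (replicates 13, 14 and 15). Confluent cells of both genotypes received the same induction medium for 2 days (isobutylmethylxanthine, indomethacin, dexamethasone, insulin, T3 and rosiglitazone) and then differentiation medium for 7 days (insulin, T3 and rosiglitazone). Each of the 6 samples was an independent culture, and the labels do not say how many animals each was made from. Abundance is given in RPKM, the reads of a transcript scaled to its length and to all mapped reads of the culture, so that levels of different genes can be set beside each other. The question was which isoforms these cells expressed, in which ratios, and whether abundance and ratios differed with the loss of UCP1, the uncoupling protein that lets brown fat release the energy of respiration as heat.

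In mammals the isoforms are distributed by tissue. Cox4i1, Cox6a1, Cox7a2 and Cox8a are found in most tissues and are called ubiquitous or liver-type. Cox6a2, Cox7a1 and Cox8b are called heart- or muscle-type, because heart and skeletal muscle use them, and Cox7a1 and Cox8b are also widely used markers of brown fat. Cox4i2 is best known from lung and from cells of small vessels and is linked to low oxygen. Cox7a2l, related in sequence to the Cox7a genes, encodes a protein that joins complex IV to complex III in respiratory supercomplexes. Subunit IV, among others, binds adenine nucleotides and is part of the regulation of the enzyme. Subunits IV, VIa, VIIa and VIII all lie around its catalytic core.

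The libraries held between 14989600 and 17727652 reads, as computed from the RPKM values, and the floor of 3 reads for a transcript of 1000 bases lay at 0.169 to 0.20 RPKM. Ucp1, the targeted gene, was listed at 1775, 981 and 1157 RPKM in WT cells and at 307, 409 and 398 RPKM in Ucp1-KO cells. All Ucp1-KO cultures were thus below all WT cultures, in the direction of the labels, although the row does not tell a remnant transcript from an intact one. Its log2 fold change of -1.78 had an unadjusted limma p of 1.57e-04 but an adjusted p of 0.868 over all transcripts. All 8 brown adipocyte and 7 general adipocyte markers listed were detected, at very different levels. Fabp4, which binds fatty acids in adipocytes, was listed at 26960 ± 666 RPKM in WT against 27686 ± 1479 RPKM in Ucp1-KO cells (SD, n = 3 each), and Cidea, a lipid droplet protein of brown adipocytes, at 692 ± 89.9 and 974 ± 371 RPKM. Prdm16, a factor of brown fat identity, and Dio2, a deiodinase, were low, with 2.76 and 1.09 RPKM in WT cells. Of the brown adipocyte markers 7 of 8 had positive log2 fold changes, with a median of 0.13, and that of Ucp1 was negative. Of the general adipocyte markers 5 of 7 had positive and 2 negative log2 fold changes, with a median of 0.04. Among all transcripts 49.6% were positive. Cfd, a general adipocyte marker, had 155 RPKM in WT and 93.1 in Ucp1-KO cells without overlap (limma unadjusted p = 0.0268, adjusted p = 0.868). Of all transcripts 5.15% had all Ucp1-KO cultures below all WT cultures and 3.24% were lower at an unadjusted p below 0.05. The Ucp1-KO mean of Elovl3, a brown adipocyte marker, was 196% of WT with overlapping groups. Cfd and Elovl3 were singled out after their values were seen. Markers of other cells varied between cultures. The summed RPKM of 4 macrophage markers ran from 41.4 to 772 and that of 5 smooth muscle markers from 47.6 to 345.

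Sequences around the starts of the Cox7a and Cox8 pairs are shown. These pairs were taken because both the ubiquitous and the tissue-type gene were abundant and both starts were in the promoter table of RefSeq (GRCm38.p6). Windows of 300 bases, from 250 before to 50 after the transcription start, were given there for 6 of the 9 genes and were searched on both strands. The stretch from 180 bases before to 22 after the start is printed 5′ to 3′ on the strand of the gene. Capitals mark TTCCG (the core bound by ETS factors such as GABP, written CGGAA on the other strand), CCAAT (written ATTGG on the other strand), TATAAA and CAGCTG, an E-box. The motifs marked do not overlap each other. The start of Cox7a2 in that table lay inside the outer bounds of the gene.
Cox7a1, chr7:30183991-30184192, plus strand: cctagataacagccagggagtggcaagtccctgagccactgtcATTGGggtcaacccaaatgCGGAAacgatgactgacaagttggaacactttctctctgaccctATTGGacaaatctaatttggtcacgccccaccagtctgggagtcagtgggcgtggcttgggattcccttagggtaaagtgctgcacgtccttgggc
Cox7a2, chr9:79759832-79760033, minus strand: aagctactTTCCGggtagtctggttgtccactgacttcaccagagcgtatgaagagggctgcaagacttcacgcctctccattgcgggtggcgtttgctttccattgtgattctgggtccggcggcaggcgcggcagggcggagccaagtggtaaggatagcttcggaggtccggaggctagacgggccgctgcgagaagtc
Cox8a, chr19:7217595-7217796, minus strand: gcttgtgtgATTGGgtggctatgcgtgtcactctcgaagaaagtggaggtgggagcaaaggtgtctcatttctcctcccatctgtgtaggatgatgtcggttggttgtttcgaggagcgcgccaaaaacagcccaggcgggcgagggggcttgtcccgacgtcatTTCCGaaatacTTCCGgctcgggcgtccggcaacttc
Cox8b, chr7:140900425-140900626, minus strand: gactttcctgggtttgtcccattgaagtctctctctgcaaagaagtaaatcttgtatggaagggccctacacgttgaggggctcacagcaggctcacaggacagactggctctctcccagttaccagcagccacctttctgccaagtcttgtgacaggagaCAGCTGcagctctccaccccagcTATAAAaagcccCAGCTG
Among all 32817 promoter windows of the table, 29.9% held TTCCG, 37.4% CCAAT, 13.6% TATAAA and 16.3% CAGCTG. The window of Cox8a held 4 matches to TTCCG, 2 of them beyond the printed stretch, and 1 to CCAAT, and neither TATAAA nor CAGCTG. That of Cox8b showed the reverse, with 1 match to TATAAA and 2 to CAGCTG and none to the other motifs. The TATAAA of Cox8b lay after the annotated start, at base 5 counted from it, and not before it. Its CAGCTG matches began 19 bases before the start and at base 17 after it. Cox8b also had only 2 CpG dinucleotides in 300 bases, and 14.1% of promoters had fewer, while Cox8a had 19, with 72.0% of promoters having fewer (median 7). The Cox7a pair was less unlike. Cox7a1 held 1 TTCCG and 2 CCAAT matches with 7 CpG, and Cox7a2 held 2 TTCCG matches, 1 of them beyond the printed stretch, with 20 CpG. The NRF1 motif (GCGCA followed directly by TGCGC), present in 0.966% of windows, was found in Cox6a1 alone, which also had 3 matches to TTCCG, 1 to CCAAT and 32 CpG. AAGGTCA, the element of estrogen-related receptors present in 4.72% of windows, was in none of the 6, and Cox7a2l had no match to any of the 6 motifs. The reference is that of C57BL/6J mice, not of the strain of these cells, and a match of letters does not show that a factor is bound.

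Ordered by their mean over the 6 cultures, the transcripts covered more than 2 orders of magnitude. Cox6a1 was highest with 1323 RPKM and was number 11 of all 22466 genes, followed by Cox8a with 1109 RPKM (number 16) and Cox4i1 with 1039 RPKM (number 22). Cox7a1 came next with 631 RPKM (number 43), then Cox7a2 with 345 RPKM (number 115) and Cox8b with 298 RPKM (number 141). Cox7a2l stood much lower with 54.4 RPKM (number 1018), and Cox4i2 with 10.3 RPKM (number 4948) and Cox6a2 with 5.84 RPKM (number 6984) were the rare isoforms. Neighbours in this order were not all separated. Cox8a was above Cox4i1 in 4 of 6 cultures and Cox7a2 above Cox8b in 5 of 6. Cox6a1 and Cox8a, and likewise Cox4i2 and Cox6a2, overlapped in range but kept their order in 6 of 6 cultures. The ranges of the other neighbours did not overlap. Of the tissue-type isoforms, then, Cox7a1 and Cox8b belonged to the abundant transcripts of these cells and Cox6a2 and Cox4i2 did not.

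**Figure D1:**
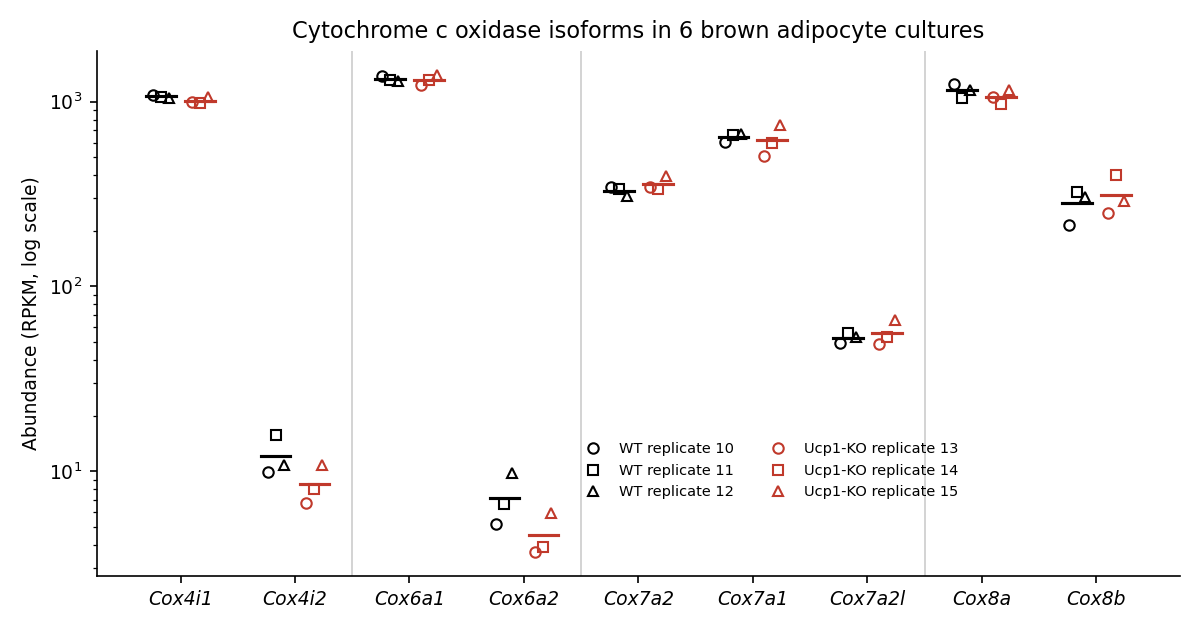
Abundance of the 9 isoform transcripts in each culture, in RPKM on a log scale, with WT cultures in black and Ucp1-KO cultures in red. Horizontal lines are group means, vertical lines divide the subunit families, and the symbols of the genotypes overlap in all 9 genes.

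Among themselves the transcripts also differed in how much they varied. Over the 6 cultures the coefficient of variation was 4.13% for Cox4i1 and 4.61% for Cox6a1, 8.19% for Cox7a2, 9.04% for Cox8a, 11.3% for Cox7a2l and 12.6% for Cox7a1. It was 21.5% for Cox8b, 29.9% for Cox4i2 and 38.3% for Cox6a2. Over all 6 cultures the tissue-type isoform thus had the larger coefficient in all 4 pairs. Within genotypes this did not hold for Cox7a in WT cells, with 5.09% for Cox7a1 and 5.97% for Cox7a2, against 19.3% and 8.63% in Ucp1-KO cells. The counting error of the reads is given beside this for the rare isoforms. For Cox6a2 in WT cells, with 58, 73 and 114 reads, counting error came to 11.1% and the observed variation to 32.7%. The corresponding values for Cox4i2 in WT cells were 8.15% and 25.6%.

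None of the RefSeq rows above the minimum abundance passed the comparison of Ucp1-KO with WT cells at an adjusted p below 0.05 (0 of 16865 in limma, 0%), and limma-voom on the recovered reads also called 0 of 16844. With no minimum abundance limma called 22 of 28890. Without adjustment 935 transcripts (5.54%) had p below 0.05 in limma, 3.24% as lower and 2.3% as higher in Ucp1-KO cells. The groups did not overlap in 11.2% of transcripts, with all Ucp1-KO cultures below all WT cultures in 5.15% and above them in 6.04%. Of the 9 isoform genes, 0 had an unadjusted p below 0.05 and 0 had groups that did not overlap. Log2 fold changes, Ucp1-KO minus WT on the log2(RPKM + 1) scale, were above 0 in 3 genes and below 0 in 6, with a median of -0.08. The median of all transcripts tested was -0.0016, with 50.4% below 0. By the exact permutation test (two-sided, smallest possible p 0.1), p lay between 0.2 and 0.9 for the 9 genes. In a bulk sample, fewer cells of a type and less RNA per cell cannot be told apart, so these values describe the cultures and not single adipocytes.

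Cox4i1 (NM_009941, chr8:120668225-120674209, plus strand, GRCm38 here and for the genes that follow) encodes the common form of subunit IV. It was listed at 1087, 1066 and 1048 RPKM in WT replicates 10, 11 and 12 and at 991, 983 and 1061 RPKM in Ucp1-KO replicates 13, 14 and 15. WT cells had 1067 ± 19.6 and Ucp1-KO cells 1012 ± 43.4 RPKM (SD, n = 3 each), or 94.8% of WT. Ucp1-KO replicates 13 and 14 were the lowest of the 6, and replicate 15 lay among the WT cultures. The log2 fold change was -0.08 with a standard error of 0.10 and a 95% interval of -0.32 to 0.17 (limma adjusted p = 0.922), or 0.80-fold to 1.12-fold. It was the steadiest of the 9, with 1.11-fold between the highest and the lowest culture. Of its 50-base windows 12.2% also occur in transcripts of the neighbouring gene Emc8, so that part of its sequence cannot be assigned by sequence alone.

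Cox4i2 (NM_053091, chr2:152753916-152765039, plus strand) encodes the alternative form of subunit IV. Its abundance was 9.91, 15.7 and 10.8 RPKM in WT cells, from 123, 190 and 139 reads. In Ucp1-KO cells it was 6.73, 7.98 and 10.8 RPKM, from 79, 100 and 118 reads. WT replicate 11 was the highest culture and Ucp1-KO replicates 13 and 14 were the lowest, while Ucp1-KO replicate 15 equalled WT replicate 12 within rounding. The group values were 12.1 ± 3.10 and 8.51 ± 2.10 RPKM (SD, n = 3 each), so that the mean of Ucp1-KO cells was 70.2% of WT. The log2 fold change of -0.46 (standard error 0.21, 95% interval -0.97 to 0.05) did not pass the test, with a limma unadjusted p of 0.0689 and an adjusted p of 0.868. The interval spans from 0.51-fold to 1.03-fold.

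Expressed as a ratio, Cox4i1 exceeded Cox4i2 by 109.7, 68.1 and 97.2 times in the WT cultures and by 147, 123 and 98.0 times in the Ucp1-KO cultures. The ratio was lowest in WT replicate 11 and highest in Ucp1-KO replicate 13, and the groups overlapped. Cox4i2 made up 1.12 ± 0.287% of the sum of both transcripts in WT and 0.830 ± 0.169% in Ucp1-KO cells (SD, n = 3 each). The difference of the log2 ratios was 0.43 (exact permutation test, two-sided, p = 0.2), the first of 4 ratios compared.

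Markers of other cell types were set beside Cox4i2. Summed RPKM of 4 endothelial markers (Pecam1, Cdh5, Kdr and Tek) was 2.30, 28.0 and 13.2 in WT and 5.69, 12.8 and 5.22 in Ucp1-KO cells. WT replicate 11 was the highest culture in this sum as well as in Cox4i2, a likeness picked out after the values were seen. The other cultures did not keep the same order. WT replicate 10 had the lowest sum, but its 9.91 RPKM of Cox4i2 lay above Ucp1-KO replicates 13 and 14. Ucp1-KO replicate 14 had a sum of 12.8 RPKM but only 7.98 RPKM of Cox4i2, below all WT cultures. Of the endothelial markers 3 of 4 were tested, 0 had an unadjusted p below 0.05, and all 3 had lower means in Ucp1-KO cells, with none at 0 in any culture. The sum of 5 smooth muscle markers was 345, 215 and 176 RPKM in WT against 266, 70.2 and 47.6 RPKM in Ucp1-KO cells, with all 5 lower in Ucp1-KO cells and 2 of them at an unadjusted p below 0.05, where 3.24% of all transcripts were lower at this p. The sum of 7 markers of preadipocytes and stroma was 269, 394 and 254 RPKM in WT against 253, 319 and 142 RPKM in Ucp1-KO cells, with negative log2 fold changes in 6 of 6 tested markers (the mean RPKM of Ly6a was higher, at 122 against 114) and 2 at an unadjusted p below 0.05 (again beside 3.24%), and with Dpp4 at 0 in some cultures. The part of these cells in the values of Cox4i2 was not tested.

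**Figure D2:**
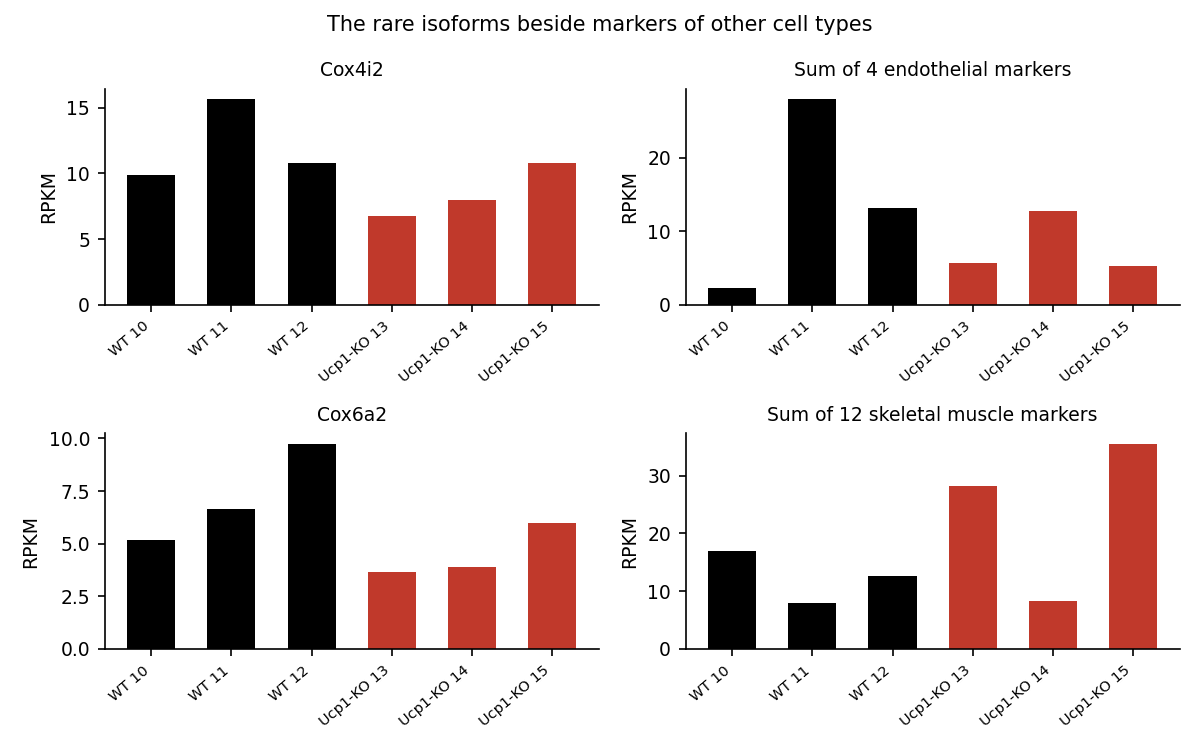
Abundance of Cox4i2 and Cox6a2 (left) and summed abundance of 4 endothelial and 12 skeletal muscle markers (right) in each culture, in RPKM on linear axes from 0, with WT in black and Ucp1-KO in red. WT replicate 11 has the tallest bar for Cox4i2 (15.7 RPKM) and for the endothelial sum (28.0 RPKM), but the other cultures do not keep the same order in both. The tallest bars of Cox6a2 and of the muscle sum are in different cultures.

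Cox6a1 (NM_007748, chr5:115345652-115348958, minus strand) encodes the ubiquitous form of subunit VIa. It was listed at 1384, 1316 and 1293 RPKM in WT and at 1236, 1308 and 1401 RPKM in Ucp1-KO cells. The Ucp1-KO group held both the lowest and the highest culture and enclosed all WT values. Means were 1331 ± 47.6 and 1315 ± 82.8 RPKM (SD, n = 3 each), with a log2 fold change of -0.02 (standard error 0.11, 95% interval -0.29 to 0.25, limma adjusted p = 0.984). Of its 50-base windows 12.3% also occur in other annotated transcripts.

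Cox6a2 (NM_009943, chr7:128205435-128206366, minus strand) encodes the heart- and muscle-type form and was the least abundant of the 9. In WT cells it was listed at 5.16, 6.64 and 9.76 RPKM. In Ucp1-KO cells it was listed at 3.66, 3.87 and 5.97 RPKM, from 39, 44 and 59 reads. Ucp1-KO replicates 13 and 14 were the lowest cultures, but replicate 15 exceeded WT replicate 10, so the groups overlapped. The Ucp1-KO mean of 4.50 ± 1.28 RPKM was 62.7% of the WT mean of 7.18 ± 2.35 RPKM (SD, n = 3 each). This was the largest fold change among the 9 genes, with a log2 value of -0.56 (standard error 0.24, 95% interval -1.14 to 0.02), and it did not pass the test (limma unadjusted p = 0.0563, adjusted p = 0.868). Addition of 1 RPKM understates the change of such a low transcript, and limma-voom on reads gave a log2 fold change of -0.67 (adjusted p = 0.875).

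Cox6a1 exceeded Cox6a2 by 268, 198 and 132 times in the WT cultures and by 337, 338 and 235 times in the Ucp1-KO cultures. WT replicate 10 lay above Ucp1-KO replicate 15 and kept the groups from separating. The difference of the log2 ratios was 0.64 (exact permutation test, two-sided, p = 0.2), and Cox6a2 made up 0.541 ± 0.192% of the pair in WT and 0.338 ± 0.0745% in Ucp1-KO cells (SD, n = 3 each).

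Since muscle expresses Cox6a2, 12 skeletal muscle markers were examined. Their sum was 16.9, 7.87 and 12.6 RPKM in WT against 28.3, 8.25 and 35.6 RPKM in Ucp1-KO cells. Only 5 of the 12 reached the minimum for testing. Of these, Tnnt3 (0.0770 RPKM in WT against 1.15 RPKM in Ucp1-KO cells) and Tnni2 reached it only through Ucp1-KO cells, so no count of directions is drawn from the list. The markers were uneven in level. Mb, the myoglobin gene, reached 20.1 RPKM, Acta1 8.90 RPKM and Mylpf 7.30 RPKM, each in Ucp1-KO replicate 13 or 15, which is in the range of Cox6a2 or above it. Ckm, the muscle creatine kinase, did not exceed 0.166 RPKM in any culture, Myod1 0.0948 RPKM and Myog 1.21 RPKM. Ckm, Myh1, Myh2, Myh4, Tnnt3, Myod1 and Myog were at 0 in at least 1 culture. The part of muscle cells in the values of Cox6a2 was not tested. The sum of 5 heart markers did not exceed 1.80 RPKM. Des, which encodes desmin and was listed among the smooth muscle markers, was at 3.54, 5.52 and 7.82 RPKM in WT and at 3.46, 3.4 and 5.65 RPKM in Ucp1-KO cells. Like Cox6a2 it was highest in WT replicate 12 and lowest in Ucp1-KO replicates 13 and 14, a likeness picked out after the values were seen. The other smooth muscle markers (Acta2, Myh11, Cnn1 and Tagln) did not share this pattern and were highest in WT replicate 10 and lowest in Ucp1-KO replicate 15.

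Cox7a1 (NM_009944, chr7:30184171-30186030, plus strand) encodes the heart-type form of subunit VIIa. It was listed at 608, 659 and 669 RPKM in WT and at 507, 599 and 743 RPKM in Ucp1-KO cells. As in Cox6a1, the Ucp1-KO cultures enclosed the WT cultures, with replicate 13 the lowest and replicate 15 the highest. Means were 645 ± 32.8 and 617 ± 119 RPKM (SD, n = 3 each), and the log2 fold change was -0.08 (standard error 0.16, 95% interval -0.45 to 0.29, limma adjusted p = 0.949). Leaving out Ucp1-KO replicate 13 turned it to 0.05.

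Cox7a2 (NM_009945, chr9:79755241-79771422, minus strand) encodes the liver-type form of the same subunit. Its abundance was 345, 337 and 308 RPKM in WT against 345, 338 and 395 RPKM in Ucp1-KO cells. Ucp1-KO replicates 13 and 14 were close to WT replicates 10 and 11, and the difference in means, 330 ± 19.7 against 359 ± 31.0 RPKM (SD, n = 3 each), came from the lowest WT and the highest Ucp1-KO culture. The log2 fold change was 0.12 (standard error 0.11, 95% interval -0.13 to 0.37, limma adjusted p = 0.893).

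In RPKM, Cox7a1 was above Cox7a2 in 6 of 6 cultures. This order rested on scaling to the annotated length, 366 bases for Cox7a1 and 754 for Cox7a2. Mean reads were 4055 for Cox7a1 and 4266 for Cox7a2 in WT cells, and 3619 and 4352 in Ucp1-KO cells. The ratio of Cox7a1 to Cox7a2 was 1.76, 1.96 and 2.17 in WT and 1.47, 1.78 and 1.88 in Ucp1-KO cells, so that the heart-type transcript made up 66.1 ± 2.37% of the pair in WT and 62.9 ± 3.05% in Ucp1-KO cells (SD, n = 3 each). WT replicate 12 had the highest and Ucp1-KO replicate 13 the lowest ratio, and Ucp1-KO replicates 14 and 15 lay within the range of WT. The log2 ratios differed by -0.20 (exact permutation test, two-sided, p = 0.3). The level of the ratio depended on the transcript row. With the most abundant cDNA row of each gene, in which Cox7a2 was at 489 ± 29.2 RPKM in WT against 532 ± 45.9 RPKM in Ucp1-KO cells, the geometric mean of the ratio was 1.34 in WT and 1.15 in Ucp1-KO cells, compared with 1.96 and 1.70 for the RefSeq rows.

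Cox7a2l (NM_009187, chr17:83501917-83514333, minus strand), the supercomplex factor, was listed at 49.6, 55.7 and 53.1 RPKM in WT and at 48.6, 53.4 and 65.7 RPKM in Ucp1-KO cells. Replicate 15 was the highest and replicate 13 the lowest of the Ucp1-KO cultures and of all 6, with the WT cultures in between. The log2 fold change of 0.07 (standard error 0.13, 95% interval -0.23 to 0.37) had a limma adjusted p of 0.945 and became -0.05 without Ucp1-KO replicate 15. Of its 50-base windows 19.8% also occur in the processed pseudogene Gm6969. As a share of the summed Cox7a family, Cox7a2l made up 4.95%, 5.30% and 5.16% in WT and 5.39%, 5.39% and 5.46% in Ucp1-KO cells. All Ucp1-KO cultures were thus above all WT cultures, by a small margin (5.13 ± 0.176% against 5.41 ± 0.0403%, SD, n = 3 each, exact permutation test, p = 0.1, the smallest this design allows). It was 1 of 3 shares computed, beside 6.04% of all transcripts in which all Ucp1-KO cultures lay above all WT cultures, and the shares were not recomputed under other settings. The share of Cox7a1 was 62.7 ± 2.18% in WT and 59.5 ± 2.86% in Ucp1-KO cells, and that of Cox7a2 was 32.1 ± 2.28% and 35.1 ± 2.89%, both with overlapping groups.

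Cox8a (NM_007750, chr19:7215158-7217616, minus strand) encodes the ubiquitous form of subunit VIII. It was listed at 1247, 1048 and 1161 RPKM in WT and at 1066, 968 and 1163 RPKM in Ucp1-KO cells. WT replicate 10 was the highest and Ucp1-KO replicate 14 the lowest culture, and the remaining values of both groups were interleaved. Means were 1152 ± 99.7 and 1066 ± 97.7 RPKM (SD, n = 3 each), with a log2 fold change of -0.11 (standard error 0.13, 95% interval -0.42 to 0.19, limma adjusted p = 0.909).

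Cox8b (NM_007751, chr7:140898942-140900446, minus strand) encodes the heart- and muscle-type form, which shares with Cox7a1 its use as a marker of brown fat. Its abundance was 216, 325 and 306 RPKM in WT against 251, 401 and 289 RPKM in Ucp1-KO cells. Within each genotype 1 culture stood off, WT replicate 10 as the lowest and Ucp1-KO replicate 14 as the highest, and without either of them the sign of the difference turned (log2 fold change -0.04 and -0.05). With all cultures, means were 282 ± 58.5 and 313 ± 77.9 RPKM (SD, n = 3 each) and the log2 fold change 0.14 (standard error 0.22, 95% interval -0.38 to 0.67, limma adjusted p = 0.934). The interval runs from 0.77-fold to 1.6-fold, wider than for any other of the abundant isoforms.

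The ratio of Cox8a to Cox8b was 5.78, 3.23 and 3.79 in WT and 4.25, 2.41 and 4.03 in Ucp1-KO cells. It was highest in WT replicate 10, where Cox8a was highest and Cox8b lowest, and lowest in Ucp1-KO replicate 14, where Cox8a was lowest and Cox8b highest. Cox8b accounted for 19.8 ± 4.56% of the pair in WT and 22.7 ± 5.68% in Ucp1-KO cells (SD, n = 3 each). The log2 ratios differed by -0.26 (exact permutation test, two-sided, p = 0.6), and by 0.000368 without Ucp1-KO replicate 14.

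**Figure D3:**
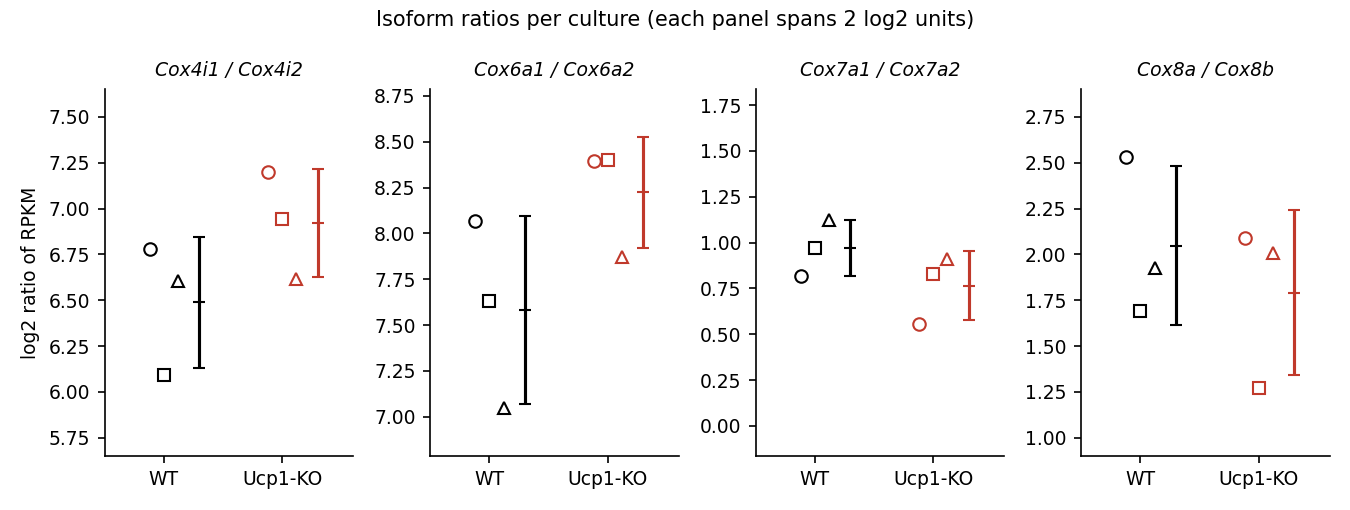
Log2 ratio of RPKM of the isoform pairs in each culture, with 1 panel per pair and the same span of 2 log2 units in each. Circles, squares and triangles are replicates 10, 11 and 12 of WT (black) and 13, 14 and 15 of Ucp1-KO (red), bars are mean ± SD, and the genotypes overlap in all 4 panels.

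The ratios thus placed the pairs in 3 ranges. Cox7a was the only pair in which the tissue-type transcript was the more abundant in RPKM, an order that rested on the annotated lengths. In Cox8 the tissue-type transcript was a minor but sizeable share, and in Cox4 and Cox6a it made up at most 1.45% and 0.749% in any culture. The spread of the ratio over the 6 cultures was 1.48-fold for Cox7a, 2.16-fold for Cox4, 2.40-fold for Cox8 and 2.55-fold for Cox6a.

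The other nuclear-encoded subunit genes of the enzyme gave the setting. Of 10 listed, 8 were tested, 0 had an unadjusted p below 0.05, 7 were higher and 1 lower in Ucp1-KO cells, with a median log2 fold change of 0.11. Cox6b1, the common subunit VIb that faces cytochrome c, was the most abundant of the nuclear-encoded subunits at 1403 ± 20.1 RPKM in WT against 1494 ± 213 RPKM in Ucp1-KO cells (SD, n = 3 each), next to Cox6a1. Of the testis forms, Cox6b2 was tested, at 14.9 ± 2.01 RPKM in WT against 18.8 ± 3.68 RPKM in Ucp1-KO cells (SD, n = 3 each). The testis forms Cox7b2 and Cox8c were under the minimum for testing. Cox7b2 was detected in Ucp1-KO replicate 13 alone, at 0.114 RPKM, and Cox8c was listed at 0 in all cultures. Cox7c was listed at only 2.0 ± 0.942 and 2.85 ± 0.203 RPKM, and 53.0% of its 50-base windows also occur in 4 other annotated genes. The part of this overlap in its level was not tested.

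**Figure D4:**
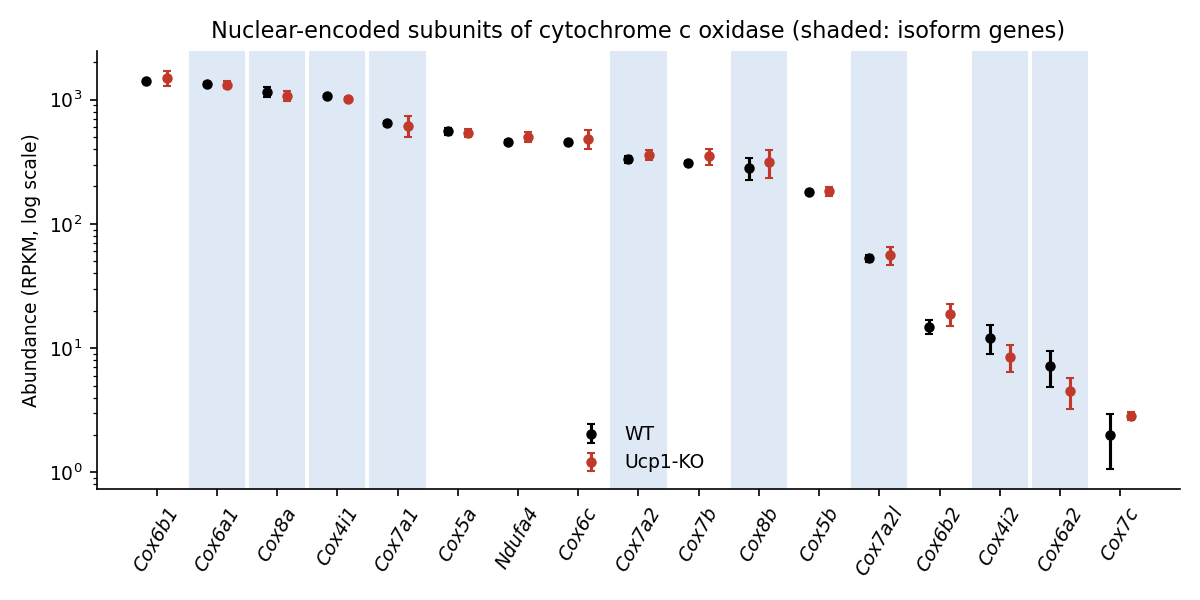
Mean abundance ± SD (n = 3 cultures each) of the nuclear-encoded cytochrome c oxidase subunits tested, in RPKM on a log scale, with WT in black and Ucp1-KO in red and the 9 isoform genes shaded. Isoform genes take places at the top of the order (Cox6a1, Cox8a, Cox4i1, Cox7a1) and near its lower end (Cox4i2, Cox6a2).

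**Figure D5:**
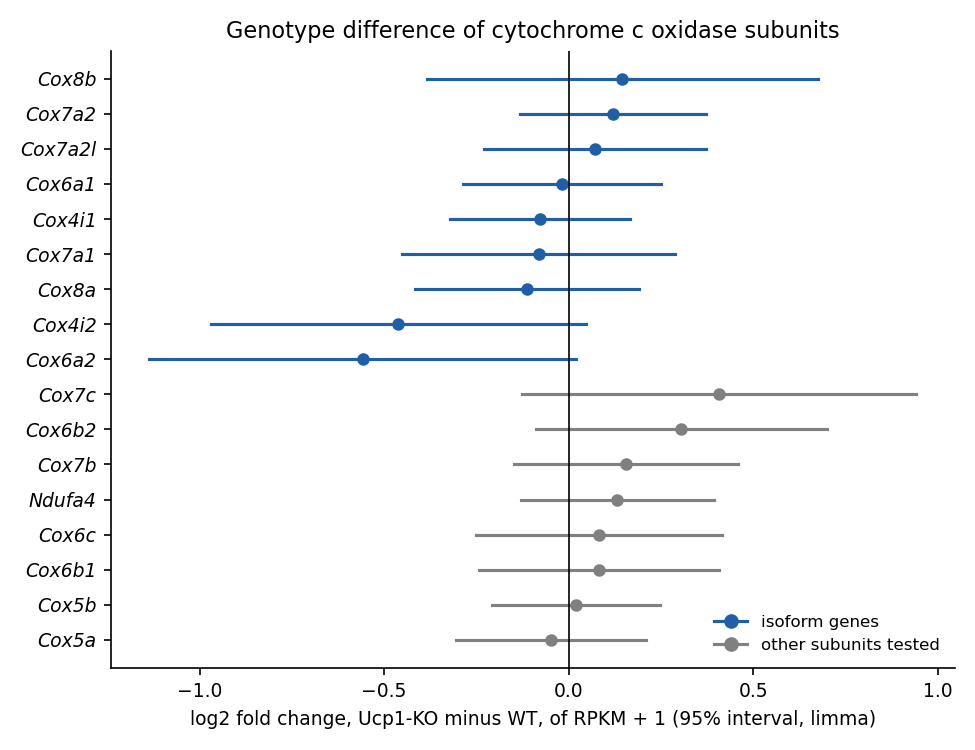
Log2 fold change, Ucp1-KO minus WT on the log2(RPKM + 1) scale, with 95% intervals from limma, for the 9 isoform genes (blue) and the 8 other subunits tested (grey). All 17 intervals include 0, and Cox6a2 and Cox4i2 lie furthest to the left.

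Among 27 assembly factors of the enzyme, 26 had a RefSeq row and were tested. Of these 19 had higher and 7 lower means in Ucp1-KO cells, with a median log2 fold change of 0.08, and 0 passed after adjustment. Cmc2, a mitochondrial twin CX9C protein needed for the enzyme, alone among the 26 had an unadjusted p below 0.05, beside 5.54% of all transcripts. It was listed at 24.5 ± 2.48 RPKM in WT against 29.3 ± 2.02 RPKM in Ucp1-KO cells (log2 fold change 0.25, limma adjusted p = 0.868). The most abundant was Cox17, the copper chaperone, with 191 ± 6.26 and 215 ± 20.9 RPKM, and the least abundant was Pet117 with 2.30 ± 0.705 and 2.67 ± 0.780 RPKM (SD, n = 3 each).

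Of 18 regulators, chosen because they act on respiratory chain genes or on Cox4i2, 15 had higher and 3 lower means in Ucp1-KO cells, with a median log2 fold change of 0.13 and 0 adjusted calls. Cxxc5, a factor known to act on the Cox4i2 promoter, alone among the 18 had an unadjusted p below 0.05 and groups that did not overlap. Of all transcripts 5.54% had such a p and 11.2% such groups, so neither count sets the list apart. Cxxc5 was at 14.2 ± 1.75 RPKM in WT against 11 ± 0.163 RPKM in Ucp1-KO cells (SD, n = 3 each, log2 fold change -0.34, limma adjusted p = 0.868). Chchd2, another factor known from the Cox4i2 promoter, was the most abundant regulator with 282 ± 12.1 and 289 ± 19.6 RPKM. Mef2c, a muscle transcription factor, was the least abundant with 1.01 ± 0.0998 and 1.23 ± 0.219 RPKM.

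Genes whose pattern over the 6 cultures was most like that of a tissue-type isoform were looked up among 12258 genes by Pearson correlation of log2(RPKM + 1). They were B4galt7 (r = 0.987), Anks6 (r = 0.987) and Ldhd (r = 0.984) for Cox4i2, and Smyd5 (r = 0.984), Dusp14 (r = 0.982) and Garem (r = 0.976) for Cox6a2. For Cox7a1 they were Stk32c (r = 0.994), Zfp839 (r = 0.993) and Macrod1 (r = 0.992), and for Cox8b Ccdc134 (r = 0.999), Kbtbd7 (r = 0.995) and Sesn1 (r = 0.988). The 4 isoforms shared none of these genes. With 6 cultures and so many genes to choose from, correlations of this size are a description of these cultures, whose points also share the library total of each culture.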

How the data were processed

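RNA of 3 WT and 3 Ucp1-KO brown adipocyte cultures was prepared with the TruSeq RNA kit and sequenced in reads of 50 bases from 1 end. Mapping by the authors was to build 38 of the mouse genome. Reads with a unique position were given to known transcripts in Genomatix, and the authors deposited the result as RPKM, scaled to transcript length and mapped reads. CASAVA and bcl2fastq are named in the submitters' processing notes. The authors compared genotypes with DESeq2. Each of the 6 columns names its culture.

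RefSeq rows (28890 of 168326) with a mean of at least 0.5 RPKM (16865) were fitted on the log2(RPKM + 1) scale in limma (version 3.58.1, R 4.3.3) with genotype as the only term and moderated variances that follow the intensity trend. Adjustment over all of them followed Benjamini and Hochberg (threshold 0.05). The design named a count test in case of counts and limma for RPKM, and the latter applied. Isoform ratios used RPKM with nothing added and exact permutation tests. The number of cultures (3 per genotype) and, for rare transcripts, the depth limit precision. Library totals were recovered from Ensembl rows of known length, 93.0% to 93.1% of whose values were whole reads within 0.03 reads, and 16844 (99.9%) of the tested rows then gave whole reads in every culture. Reads are not independent molecules, so the floor of 3 reads and the counting errors cover counting error only. On simulated data of 16844 transcripts, 100 of them changed 3-fold and 100 changed 6-fold, limma called 81 and 94 of these and 6 others, and 0 when none was changed. The simulated noise was independent between transcripts and 200 changes were planted, so these rates need not hold for the comparison of genotypes. There Ucp1, the targeted gene, had a limma adjusted p of 0.868.

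Windows of 50 bases were compared across GENCODE M21 transcripts, and promoters came from RefSeq (GRCm38.p6). Promoters of Cox4i1, Cox4i2 and Cox6a2 were not analysed here. Other steps ran in Python 3.11.15 (scipy 1.17.1, pandas 2.3.3, numpy 2.4.6), with figures drawn in matplotlib 3.10.9. The 9 genes, the gene lists and the rule for named genes were chosen with earlier results of these data known. The rule named the 9 genes, Ucp1 and the 3 most alike genes of the 4 tissue-type isoforms. From the lists of other subunits, assembly factors and regulators it named genes with an unadjusted p below 0.05 or at the ends of their list in level. Cell type markers and some further subunits were named outside this rule. Alternatives were another constant, no minimum, 1 row per gene, all annotations, other scaling, limma-voom on reads, leaving out each culture, and other rows for a gene. The cDNA rows were added after seeing the data. Protein and respiration data were not analysed here.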

Additional observations from a re-analysis of the deposited data

How the results depend on the processing

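Of 171 values recomputed for the 9 genes, the 4 ratios and the count of transcripts past the threshold, 162 kept their direction and their side of the threshold. The count of 0 became 22 of 28890 transcripts with no minimum abundance and 935 at an unadjusted p below 0.05. It was 0 without any single culture and with limma-voom. No member passed the adjusted threshold in any alternative run. Direction turned in 7 values, each on leaving out 1 culture. The log2 fold change of Cox6a1 became 0.0099 without WT replicate 10 and 0.025 without Ucp1-KO replicate 13, and that of Cox7a1 0.0497 without Ucp1-KO replicate 13. That of Cox7a2l became -0.0501 without Ucp1-KO replicate 15, that of Cox8b -0.0373 without WT replicate 10 and -0.0458 without Ucp1-KO replicate 14, and the difference of the Cox8a to Cox8b ratio 0.000368 without Ucp1-KO replicate 14. The cause was not tested.

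Leaving out each culture in turn, log2 fold changes ran from -0.11 to -0.06 for Cox4i1, -0.63 to -0.28 for Cox4i2, -0.065 to 0.025 for Cox6a1, -0.74 to -0.34 for Cox6a2, -0.23 to 0.0497 for Cox7a1, 0.05 to 0.16 for Cox7a2, -0.0501 to 0.16 for Cox7a2l, -0.18 to -0.05 for Cox8a and -0.0458 to 0.29 for Cox8b. Differences of log2 ratios ran from 0.23 to 0.58 (Cox4i1 to Cox4i2), 0.37 to 0.88 (Cox6a1 to Cox6a2), -0.28 to -0.10 (Cox7a1 to Cox7a2) and -0.44 to 0.000368 (Cox8a to Cox8b). With Ensembl rows only the Cox4i1 to Cox4i2 ratio could be computed, with geometric means of 94.4 in WT and 127 in Ucp1-KO cells. No paired analysis was possible because the genotypes share no replicate numbers. Depth limited no abundant isoform. Cox4i2 and Cox6a2 rested on 39 to 190 reads a culture.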

Other observations

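The catalytic core of the enzyme is encoded by the mitochondrial genome, which has no RefSeq rows in the table and was read from its Ensembl rows. Mitochondrial COX1 was listed at 12662, 12356 and 14374 RPKM in WT and at 9956, 8018 and 12496 RPKM in Ucp1-KO cells. Ucp1-KO replicates 13 and 14 were below all WT cultures, and replicate 15 lay above WT replicate 11 (13131 ± 1088 against 10157 ± 2246 RPKM, SD, n = 3 each, exact permutation test, two-sided, p = 0.2). Both groups were several times above Cox6b1, the most abundant nuclear-encoded subunit. Mitochondrial COX2 was listed at only 1.05 ± 0.232 and 0.947 ± 0.425 RPKM. All of its 635 windows of 50 bases also occur in 2 annotated pseudogenes, against 51.1% of the windows of COX1. The part of these shared windows in the levels was not tested.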
